A study of Mus musculus with 12 samples.

Results

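Cytochrome P450 enzymes of families 1 to 4 are the haem proteins of the endoplasmic reticulum that oxidise drugs, toxins, steroids and fatty acids, and they were followed here as mRNA in mouse colonic mucosa. The members were the protein-coding rows whose symbol is Cyp, a family digit from 1 to 4, a subfamily letter and a number, which took 72 of the 38592 rows deposited. Family 1 had 3 members, family 2 had 47, family 3 had 7 and family 4 had 15. A mean of 10 raw counts over the libraries was reached by 30 members, none of them in family 1, and these are named below. The last member inside that limit was Cyp2j9 with a mean of 10.04 counts, and the first outside was Cyp2d11 with 7.68. Symbols that end in a further letter, such as Cyp4a12a, are outside the rule.

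The 12 libraries were bulk mRNA of colonic mucosa, 6 with the genotype Sgo1-/+ and 6 wild type. Sgo1 encodes shugoshin, which protects the cohesion of sister chromatids at centromeres, and the series' design text names chromosome instability in the colon as the question. Azoxymethane, which causes colon tumours in rodents, had been given to every mouse of either genotype at 4 mg/kg. There were 2 doses in each week between weeks 8 and 12 of life, and the mucosa was collected at 9 months. No group without azoxymethane was part of the comparison, and the strain is not stated in the labels. Levels are in CPM, a gene's counts brought to a common library size with TMM factors, and a log2 change is Sgo1-/+ over wild type from edgeR's quasi-likelihood fit, given ± its SE. Nothing in the labels ties a library to an animal or litter, so that a p-value compares a difference with the spread among these libraries, which may be technical.

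P450 enzymes take electrons from cytochrome P450 reductase or cytochrome b5 and use them to insert an oxygen atom into a substrate. Families 1 to 3 are best known for foreign compounds and family 4 for the hydroxylation of fatty acids and leukotrienes, and several members of family 2 form epoxides and hydroxy acids from arachidonic acid. In the liver CYP2E1 oxidises azoxymethane to methylazoxymethanol, which breaks down to a species that methylates DNA. The gut epithelium has a P450 set of its own, with Cyp2c, Cyp3a and Cyp4 genes among it.

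Library totals ran from 5711553 to 10198304 counts, and 45 to 63 members had a count in a library. The targeted gene, listed as Sgol1, had 2.33 ± 0.40 CPM in Sgo1-/+ libraries and 3.64 ± 1.80 CPM in wild type libraries (SD, n = 6 each), a log2 change of -0.67 ± 0.32 with an adjusted p of 0.551 in edgeR. The tissue markers were those of colon, with the 6 colonocyte genes summing to 6922 to 11910 CPM in Sgo1-/+ libraries and 7661 to 14986 CPM in wild type libraries, and the 5 goblet genes to 7700.2 to 13489 CPM in Sgo1-/+ libraries and 6895 to 10191 CPM in wild type libraries. Squamous genes summed to at most 3.05 CPM in Sgo1-/+ libraries and 4.35 CPM in wild type libraries. Sgo1-/+ 3, wild type 3 and wild type 5 stood apart by 4 rows, called mitochondrial-like here. These rows took 42.2%, 46.5% and 43.7% of their counts, against 14.8% to 27.8% in the other libraries. The origin of the 4 rows was not checked and their share was not split by row, so the name is a label only. The column name carried a suffix in 4 libraries, Sgo1-/+ 5 and 6 and wild type 1 and 6, whose meaning the labels do not state. RNA came from whole mucosa, in which fewer cells of a type and less RNA per cell cannot be told apart.

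The promoters of 4 members on which the results turn are printed below for comparison, from RefSeq on GRCm38.p6, the mm10 build, with 250 bases before the start and 50 after it. Cyp2e1 is the azoxymethane oxidase, Cyp2c55 the most abundant member, Cyp2c65 its intestinal neighbour, and Cyp2c68 the member with the highest log2 change. They lie at chr7:140763569-140763868 on the plus strand, chr19:39006769-39007068 on the plus strand, chr19:39060756-39061055 on the plus strand and chr19:39741052-39741351 on the minus strand. Capitals mark CAAAGTCCA, a sequence that the hepatocyte nuclear factor HNF4 can bind, and TATAAA, the TATA box, on either strand.
Cyp2e1: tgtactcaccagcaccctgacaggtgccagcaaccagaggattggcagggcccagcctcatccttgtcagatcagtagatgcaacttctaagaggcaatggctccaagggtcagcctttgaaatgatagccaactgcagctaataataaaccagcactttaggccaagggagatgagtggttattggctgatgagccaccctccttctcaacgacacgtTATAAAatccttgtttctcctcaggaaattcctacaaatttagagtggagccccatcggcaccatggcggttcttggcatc
Cyp2c55: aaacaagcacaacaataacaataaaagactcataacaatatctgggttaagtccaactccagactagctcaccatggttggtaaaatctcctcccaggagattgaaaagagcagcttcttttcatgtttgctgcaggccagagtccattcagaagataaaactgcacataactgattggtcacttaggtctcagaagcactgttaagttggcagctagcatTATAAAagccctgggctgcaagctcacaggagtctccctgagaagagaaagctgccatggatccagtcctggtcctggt
Cyp2c65: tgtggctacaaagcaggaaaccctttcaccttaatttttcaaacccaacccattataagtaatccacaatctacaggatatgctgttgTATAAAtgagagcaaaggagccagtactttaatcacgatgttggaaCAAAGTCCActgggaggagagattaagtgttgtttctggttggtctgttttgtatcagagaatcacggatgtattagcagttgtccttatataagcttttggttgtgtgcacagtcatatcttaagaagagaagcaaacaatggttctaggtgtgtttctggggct
Cyp2c68: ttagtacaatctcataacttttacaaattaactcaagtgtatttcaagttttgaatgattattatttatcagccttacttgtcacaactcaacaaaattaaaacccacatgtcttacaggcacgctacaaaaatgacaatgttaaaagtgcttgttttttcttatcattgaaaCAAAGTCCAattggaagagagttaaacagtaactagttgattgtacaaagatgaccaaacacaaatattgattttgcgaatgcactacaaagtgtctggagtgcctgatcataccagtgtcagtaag
The letters CAAAGTCCA stood in the windows of Cyp2c65 and Cyp2c68 and not in those of Cyp2e1 and Cyp2c55. Over the 67 promoters that RefSeq gives for 60 of the members they occurred in 8, or 11.9%, against 0.475% of all 32851 promoters of that length. The 8 belonged to Cyp2c40, Cyp2c65, Cyp2c67, Cyp2c68, Cyp2c69, Cyp2c70, Cyp3a11 and Cyp3a16, of which the Cyp2c genes are neighbours with similar sequence. TATAAA was in 40.3% of member promoters and 13.6% of all. The xenobiotic response core TNGCGTG, which the aryl hydrocarbon receptor binds, was in 1.49% of member promoters, that of Cyp2c68 alone, and 5.07% of all. TTTATNG, a core that CDX factors bind, was in 14.9% of member promoters and 10.9% of all, an HNF1 core in 2.99% and 0.399%, and the DR1 repeat that nuclear receptors bind in 0% and 0.0152%. All were searched on both strands. A match says only that the letters are there.

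Cyp2c55, an enzyme that oxidises arachidonic acid, dominated the P450 mRNA of both genotypes. Its gene lies at chr19:39007019-39042693 on the plus strand. It took 71.0% ± 3.9 of the P450 CPM in Sgo1-/+ libraries and 71.6% ± 5.0 in wild type libraries (SD, n = 6 each). The summed level of the 72 members was 4629 ± 938 CPM in Sgo1-/+ libraries and 6112 ± 1247 CPM in wild type libraries, and without Cyp2c55 it was 1314 ± 101 CPM in Sgo1-/+ libraries and 1690 ± 240 CPM in wild type libraries. By subfamily the Cyp2c genes gave 76.0% ± 4.1 of the P450 CPM in Sgo1-/+ libraries and 76.9% ± 4.9 in wild type libraries. Cyp2d gave 6.56% ± 2.08 in Sgo1-/+ libraries and 5.82% ± 1.88 in wild type libraries. Cyp4f gave 5.51% ± 0.70 in Sgo1-/+ libraries and 4.95% ± 0.89 in wild type libraries, and Cyp3a 4.36% ± 0.89 in Sgo1-/+ libraries and 4.78% ± 0.89 in wild type libraries. Each of these shares differed by less than its spread between libraries.

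Levels of different genes were compared per kb of the longest transcript, as means over the 12 libraries. Cyp2c55 led with 1939 CPM per kb, and Cyp2c65 followed with 129. Cyp2d34 had 85.1, Cyp4b1 78.6, Cyp3a13 74.3, Cyp4f14 60.1, Cyp2s1 44.4 and Cyp4f40 29.1 CPM per kb, and neighbours in that order differed by less than their spread over libraries, apart from the step between Cyp2s1 and Cyp4f40. Cyp2e1 came at place 24 with 1.59 CPM per kb.

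**Figure D1:**
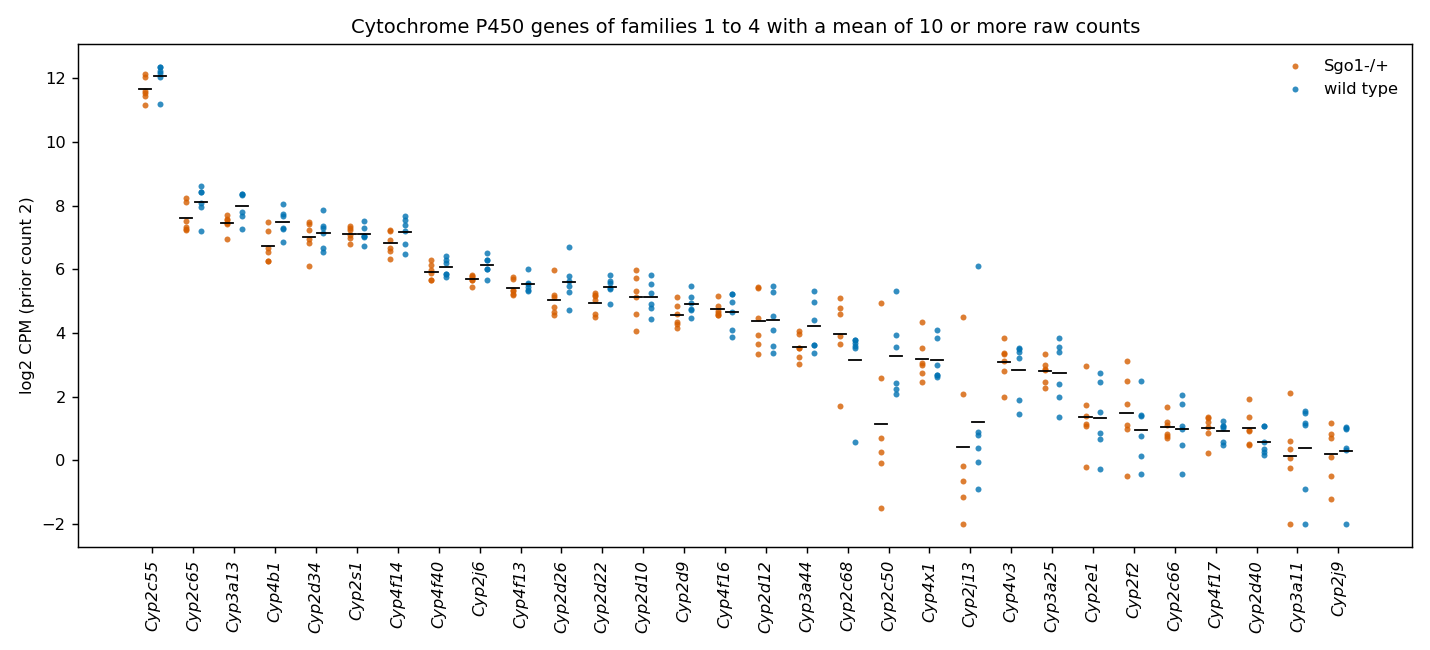
Level of the 30 P450 genes with a mean of 10 or more raw counts, as log2 CPM (vertical axis, prior count 2), with Sgo1-/+ libraries left and wild type libraries right of each gene, a point per library and a bar at the mean of a group. Cyp2c55 stands alone at the top, the points of both genotypes overlap for every gene, and the spread between libraries is wide for Cyp2c50, Cyp2j13 and Cyp2e1.

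Between genotypes no member passed an adjusted p of 0.05 in edgeR, with 28 of the 72 members tested among 13889 genes. The other 44 did not reach the filter on low counts, and they include Cyp2j13 and Cyp3a11 of the named ones. No gene of the whole table passed either, so that 0.0% of genes were called, and the smallest adjusted p of a member was 0.491. At an unadjusted p under 0.05 there were 5 members, all lower in Sgo1-/+ mucosa, and these were 17.9% of the 28, where 4.73% of all genes were lower at that limit, 4.31% higher and 9.04% either. DESeq2 likewise passed 0 members, while 0.211% of all genes passed its adjusted p. At an unadjusted p under 0.05 it had 9 of the 70 members that it fitted, against 6.68% of all genes. The estimate was below 0 for 18 members and above 0 for 10 with TMM factors, and with library totals alone 11 were below and 17 above. Those totals moved the median of all genes by 0.31 on the log2 scale, and relative to the median of all genes 17 members were below and 11 above under either scaling. With library totals alone none of the 5 members had an unadjusted p under 0.05, and their log2 changes were -0.52 to -0.17. The 1 member of 28 under that limit was Cyp2d40, higher in Sgo1-/+ mucosa, beside 12.3% of all genes. The median over the 28 members was -0.15, beside -0.0057 over all genes, of which 51.1% were below 0.

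The number of members at an unadjusted p under 0.05 depended on the libraries. Without wild type 5 it was 9, all lower, where 7.71% of all genes were at that limit. Without the 3 libraries rich in mitochondrial-like rows it was 11, with 9 lower and Cyp2c68 and Cyp2f2 higher, beside 11.6% of all genes. In the 8 libraries without the suffix it was 1, Cyp4b1, of 28 members tested, a share near the 3.98% of all genes. In the 4 libraries with the suffix it was 6 of 29, all lower, beside 14.0% of all genes.

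**Figure D2:**
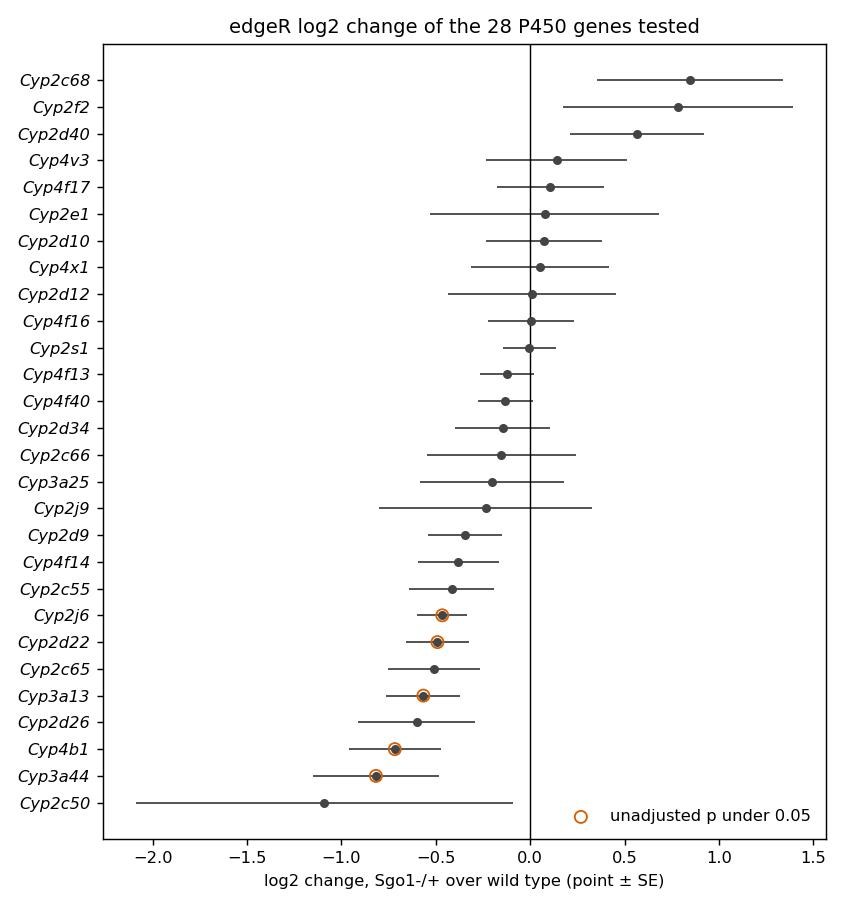
Log2 change of the 28 P450 genes tested, Sgo1-/+ over wild type with TMM factors (horizontal axis, point ± SE), ordered by value, with rings on the 5 at an unadjusted p under 0.05. Values run from -1.09 for Cyp2c50 to 0.85 for Cyp2c68, the ringed genes lie between -0.82 and -0.47, and none passed an adjusted p of 0.05.

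Cyp2e1, the enzyme that starts the activation of azoxymethane, was at the lower end of the named members in the colon at 9 months. The gene lies at chr7:140763739-140774975 on the plus strand. Sgo1-/+ libraries 1 to 6 had 2.40, 0.616, 1.72, 7.51, 1.97 and 3.11 CPM, which were 25, 6, 7.5, 94.3, 20 and 34 raw counts. Wild type libraries 1 to 6 had 1.34, 0.596, 5.25, 1.53, 6.37 and 2.59 CPM, which were 9, 6.25, 21, 10.6, 24 and 18 raw counts. Sgo1-/+ 4, wild type 5 and wild type 3 were high and the rest lay between 0.596 and 3.11 CPM, so that the genotypes overlapped over nearly their whole range.

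Cyp2e1 averaged 2.89 ± 2.41 CPM in Sgo1-/+ libraries and 2.94 ± 2.34 CPM in wild type libraries (SD, n = 6 each). The edgeR log2 change was 0.076 ± 0.61 with an adjusted p of 0.978. Its size depended on scaling and method. It was 0.44 with limma-voom and 0.63 with library totals alone, which moved the median of all genes to 0.31. An exact two-sided permutation test of the mean log2 CPM gave a difference of 0.028 and p = 0.968 over the 924 ways to assign the genotypes, where the smallest p possible was 0.00216. The sign rested on single libraries: the estimate was -0.47 without Sgo1-/+ 4 and 0.45 without wild type 5. Without the 3 libraries rich in mitochondrial-like rows it was 1.08 with an unadjusted p of 0.114 in edgeR, and among libraries without and with the suffix it was -0.036 and 0.36.

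CYP2E1 is also made by fat cells and hepatocytes, and markers of both were set beside it. Of the 11 adipocyte genes none was at 0 in all libraries and 1 had a mean under 1 CPM; their sum was 91.1 to 478 CPM in Sgo1-/+ libraries and 147 to 240.4 CPM in wild type libraries. Adipoq, the fat cell hormone adiponectin, had 6.14, 0.616, 0.919, 12.9, 1.38 and 8.40 CPM in Sgo1-/+ libraries 1 to 6 and 0.593, 0.191, 4.00, 0, 1.06 and 0 CPM in wild type libraries 1 to 6. Cfd, the complement protease adipsin, had 19.4, 0.205, 2.76, 28.9, 4.92 and 21.01 CPM in Sgo1-/+ libraries and 0.297, 0.763, 5.00, 0.287, 7.16 and 0 CPM in wild type libraries. Where these genes were low, the sum of the 11 came from others of the list. In wild type 4 it was 148 CPM, with Adipoq, Cfd, Plin1 and Fabp4 at 0, 0.287, 0 and 0.502 CPM. In Sgo1-/+ 2 it was 91.1 CPM, with the same genes at 0.616, 0.205, 0 and 0.616 CPM. In Sgo1-/+ mucosa library 4 was highest and library 2 lowest for Cyp2e1, Adipoq and Cfd, and in wild type mucosa libraries 3 and 5 were the 2 highest for each. Plin1 differed in wild type mucosa, with 0.426 CPM in library 1 and 0.265 CPM in library 5, from 2.87 and 1 raw counts. The match did not hold between genotypes. Sgo1-/+ 1 and 6 had more Adipoq and Cfd than wild type 3 and 5. They had less Cyp2e1, with 2.40 and 3.11 CPM against 5.25 and 6.37 CPM. The 10 hepatocyte genes summed to 188 to 315 CPM in Sgo1-/+ libraries and 228 to 356 CPM in wild type libraries, and none was at 0 in all libraries. Most of that sum was Apob, the lipoprotein of liver and intestine, with 139.5 to 274 CPM in Sgo1-/+ libraries and 189 to 323 CPM in wild type libraries. Alb, serum albumin, had 0.183 to 0.955 CPM in Sgo1-/+ libraries and 0 to 1.04 CPM in wild type libraries, and it was among 6 of the 10 with a mean under 1 CPM. The part of adipocyte or hepatocyte RNA in the Cyp2e1 level was not tested.

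**Figure D3:**
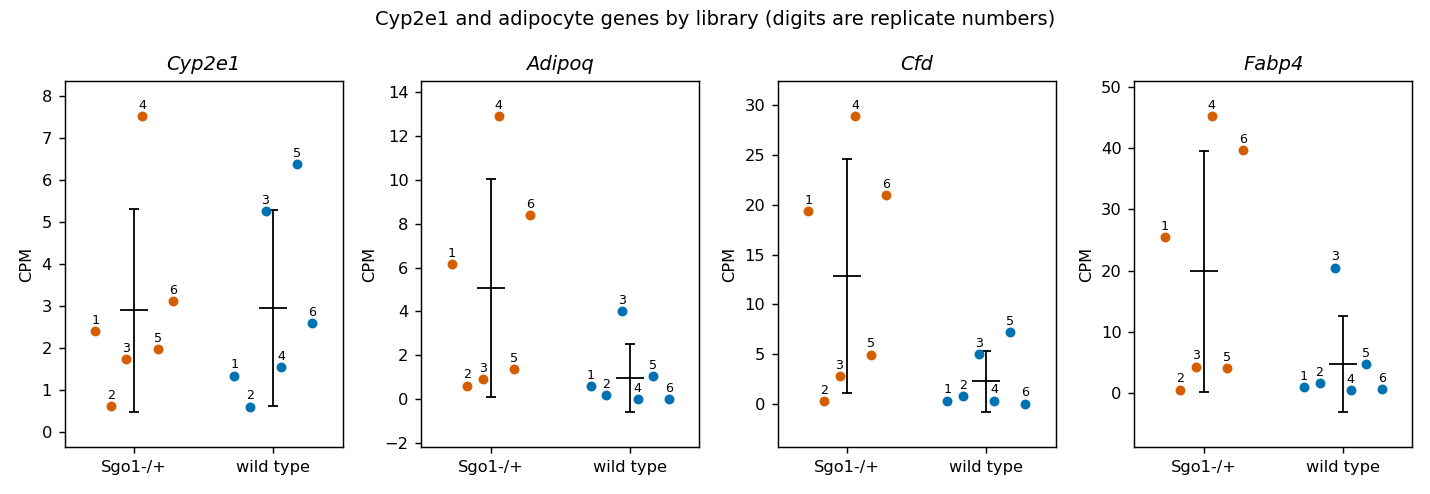
CPM of Cyp2e1 and of the adipocyte genes Adipoq, Cfd and Fabp4 (vertical axes, a scale each) by genotype, with a point per library, its replicate number as a digit, and the mean ± SD of 6 libraries in black. Sgo1-/+ 4 is the highest Sgo1-/+ library in all 4 panels, and wild type 3 and 5 are the highest wild type libraries.

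Within the Cyp2c cluster of chromosome 19, Cyp2c55 had a lowest, median and highest level of 2317, 3039 and 4511 CPM in Sgo1-/+ libraries and 2346, 4715 and 5274 CPM in wild type libraries. Wild type 5 lay at the level of the lowest Sgo1-/+ library, and the other wild type libraries, with 4232 CPM or more, lay within or above the range of Sgo1-/+ 1 and 6. It averaged 3315 ± 857 CPM in Sgo1-/+ libraries and 4422 ± 1090.4 CPM in wild type libraries, and its log2 change of -0.42 ± 0.22 had an adjusted p of 0.586 in edgeR. Of its transcript's 50-base stretches 1.13% occur in other genes, so its reads are almost all its own. Cyp2c65, an arachidonic acid oxidase of the intestine at chr19:39061015-39093944 on the plus strand, had 152, 172 and 300.7 CPM in Sgo1-/+ libraries and 147, 307 and 389 CPM in wild type libraries. As for Cyp2c55, wild type 5 was the lowest wild type library and Sgo1-/+ 5 the lowest Sgo1-/+ library, and the groups overlapped. Its log2 change was -0.51 ± 0.24 with an adjusted p of 0.551 in edgeR. Other edgeR fits gave other unadjusted p for Cyp2c55 and Cyp2c65. Without the 3 libraries rich in mitochondrial-like rows, left out after seeing the data, they were 0.0181 and 0.0168. With the replicate number as a block they were 0.0295 and 0.0441. With the level of distal colon genes as a term they were 0.255 and 0.160, and with library totals alone 0.683 and 0.538.

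Cyp2c66, which shares 24.0% of its 50-base stretches with Cyp2c65 and also oxidises arachidonic acid, averaged 1.88 ± 0.58 CPM in Sgo1-/+ libraries and 2.04 ± 1.25 CPM in wild type libraries, a log2 change of -0.15 ± 0.40. Cyp2c50, a linoleic and arachidonic acid epoxygenase, had 0.960, 0.103, 30.8, 5.73, 0.690 and 1.37 CPM in Sgo1-/+ libraries 1 to 6 and 14.99, 5.15, 11.5, 4.02, 39.5 and 4.45 CPM in wild type libraries 1 to 6. Sgo1-/+ 3 and wild type 5, both rich in mitochondrial-like rows, were the 2 highest, and 4 of 6 Sgo1-/+ libraries lay below every wild type library. The log2 change was -1.09 ± 1.00 with an adjusted p of 0.745 in edgeR, and it was -2.82 without Sgo1-/+ 3 and -0.37 without wild type 5. Of its 50-base stretches 30.7% occur in other genes, most of them in Cyp2c37, and 8.33% of libraries held a count of it that was not whole.

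Cyp2c68, at chr19:39688834-39741054 on the minus strand, had 14.8, 33.7, 2.99, 27.3, 24.1 and 12.3 CPM in Sgo1-/+ libraries 1 to 6 and 11.9, 13.3, 1.16, 13.4, 12.7 and 11.3 CPM in wild type libraries 1 to 6. Sgo1-/+ 1, 2, 4 and 5 lay above every wild type library, and replicate 3 was the lowest in each genotype. Hoxb13, a homeobox gene of the distal colon, had 47.2, 186, 34.9, 142, 139.6 and 25.6 CPM in Sgo1-/+ libraries 1 to 6. In wild type libraries 1 to 6 it had 53.1, 32.4, 23.0, 58.1, 65.5 and 64.0 CPM. Sgo1-/+ 2, 4 and 5 were the 3 highest libraries for both genes, while Sgo1-/+ 1 lay within the wild type range of Hoxb13. Sgo1-/+ 1 also lay within that of the distal gene Hoxd13, with 1.73 CPM against 28.5 CPM in wild type 5. For the distal genes Insl5 and Hoxa13 it lay above every wild type library. Insl5 had 24.2 CPM in Sgo1-/+ 1 and at most 16.98 CPM in wild type libraries, and Hoxa13 had 39.5 and at most 21.9 CPM. Hoxa13 was above every wild type library in Sgo1-/+ 3 too, with 28.4 CPM, where Cyp2c68 was lowest of the genotype. As for Cyp2c68, Sgo1-/+ 1, 2, 4 and 5 lay above every wild type library for Insl5. The 5 distal colon genes in the files summed to 51.5 to 330.4 CPM in Sgo1-/+ libraries and 46.4 to 134 CPM in wild type libraries; none was at 0 in all libraries and 1 had a mean under 1 CPM. The log2 change of Cyp2c68 was 0.85 ± 0.49 with an adjusted p of 0.617 in edgeR, and 0.25 with the distal marker level as a term. Of its 50-base stretches 43.3% occur in other genes, most of them in Cyp2c40, and its reads are uncertain to that extent.

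The Cyp2d genes of chromosome 15, kin of the human drug-metabolising CYP2D6, were the second subfamily by share. Cyp2d22, at chr15:82370528-82380260 on the minus strand, had 22.2, 33.9 and 37.8 CPM as lowest, median and highest in Sgo1-/+ libraries and 30.04, 44.6 and 55.8 CPM in wild type libraries. The lowest library of either genotype was replicate 3, and the groups overlapped. Its log2 change of -0.49 ± 0.17 had an adjusted p of 0.524 in edgeR (0.0111 unadjusted), with the unadjusted p under 0.05 in 12 of 12 fits that left out a library. With library totals alone it was -0.17, with an unadjusted p of 0.558 in edgeR. Cyp2d34, at chr15:82615965-82620907 on the minus strand, had 68.7, 137 and 178 CPM in Sgo1-/+ libraries and 92.8, 149 and 235 CPM in wild type libraries, with a log2 change of -0.14 ± 0.25 and an adjusted p of 0.874. Sgo1-/+ 6 was its lowest library and wild type 3 its highest.

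Among the other Cyp2d genes, Cyp2d26 averaged 34.9 ± 14.5 CPM in Sgo1-/+ libraries and 52.9 ± 26.6 CPM in wild type libraries, a log2 change of -0.60 ± 0.31 that was -0.29 without wild type 1. Cyp2d9, a testosterone hydroxylase, averaged 24.1 ± 6.6 CPM in Sgo1-/+ libraries and 30.6 ± 7.7 CPM in wild type libraries, with a log2 change of -0.35 ± 0.20 that was -0.045 in libraries without the suffix, -0.92 in those with it and -0.22 without wild type 1. Cyp2d10 averaged 38.3 ± 17.2 CPM in Sgo1-/+ libraries and 36.5 ± 13.0 CPM in wild type libraries, with a log2 change of 0.073 ± 0.31 that was 0.50 in libraries without the suffix and -0.77 in those with it. Cyp2d12 averaged 24.1 ± 15.03 CPM in Sgo1-/+ libraries and 24.1 ± 14.2 CPM in wild type libraries, and its log2 change of 0.010 ± 0.44 was 0.58 without the suffix and -1.10 with it. Sgo1-/+ 2, Sgo1-/+ 4 and wild type 6 were the 3 highest libraries for both Cyp2d10 and Cyp2d12. Cyp2d40 averaged 1.91 ± 0.91 CPM in Sgo1-/+ libraries and 1.305 ± 0.451 CPM in wild type libraries, a log2 change of 0.57 ± 0.35. Of its 50-base stretches Cyp2d10 has 40.5% in other genes, Cyp2d9 has 29.0% and Cyp2d40 has 24.2%, and the gene that shares most with each is Cyp2d11 for Cyp2d10, Cyp2d12 for Cyp2d9 and Cyp2d41-ps for Cyp2d40, so that their reads are uncertain to that extent.

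Cyp2j6 belongs to a subfamily known for epoxidation of arachidonic acid, and it had the smallest p of the members. At chr4:96516138-96553661 on the minus strand, it had 43.1, 52.6 and 56.4 CPM as lowest, median and highest in Sgo1-/+ libraries and 50.7, 70.9 and 91.9 CPM in wild type libraries. Sgo1-/+ libraries lay close together and wild type 5 was the lowest of its genotype, within the Sgo1-/+ range. The log2 change was -0.47 ± 0.13 with an unadjusted p of 0.00359, an adjusted p of 0.491 in edgeR and 0.164 in DESeq2. Its estimate stayed between -0.54 and -0.38 when each library was left out in turn, and the unadjusted p stayed under 0.05 in 12 of 12 such fits. Those fits kept TMM factors. With library totals alone the log2 change was -0.18, with an unadjusted p of 0.468 in edgeR. Cyp2j9 averaged 1.07 ± 0.69 CPM in Sgo1-/+ libraries and 1.23 ± 0.70 CPM in wild type libraries, with a log2 change of -0.24 ± 0.57. Cyp2j13, which was not tested, had 69.4 CPM or 467 raw counts in wild type 1 and 22.3 CPM in Sgo1-/+ 3, against 0 to 3.94 CPM in the other Sgo1-/+ libraries and 0.359 to 1.63 CPM in the other wild type libraries.

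Cyp2s1, a P450 of epithelia at chr7:25802475-25816913 on the minus strand, had 110.5, 142 and 163 CPM as lowest, median and highest in Sgo1-/+ libraries and 107, 132 and 185 CPM in wild type libraries. It averaged 140.2 ± 20.1 CPM in Sgo1-/+ libraries and 140.7 ± 27.1 CPM in wild type libraries, and its log2 change of -0.0046 ± 0.14 had an adjusted p of 0.994 in edgeR. Cyp2f2, known for naphthalene activation in the lung, averaged 3.53 ± 2.94 CPM in Sgo1-/+ libraries and 2.15 ± 1.73 CPM in wild type libraries. Its log2 change of 0.78 ± 0.61 was 0.048 with the distal marker level as a term, 0.32 without Sgo1-/+ 4, 1.22 without wild type 5 and 1.25 without the 3 libraries rich in mitochondrial-like rows. Sgo1-/+ 4 and 5 and wild type 5 were its 3 highest libraries.

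Cyp3a enzymes hydroxylate steroids and many drugs, and their 7 genes here lie on chromosome 5. Cyp3a13, known from the mouse intestine, at chr5:137892932-137921619 on the minus strand, had 125, 182 and 211 CPM as lowest, median and highest in Sgo1-/+ libraries and 154, 274 and 333 CPM in wild type libraries. The 3 highest libraries were wild type 6, 4 and 1, and wild type 5 lay among the lowest. It averaged 177 ± 29.0 CPM in Sgo1-/+ libraries and 262 ± 78.0 CPM in wild type libraries, a log2 change of -0.57 ± 0.20 with an adjusted p of 0.524 in edgeR (0.0123 unadjusted). The unadjusted p stayed under 0.05 in 12 of 12 fits that left out a library, and no 50-base stretch of its transcript occurs in another gene. With library totals alone the log2 change was -0.25, with an unadjusted p of 0.429 in edgeR.

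Cyp3a44, at chr5:145773983-145805874 on the minus strand, had 7.82, 11.3 and 16.7 CPM as lowest, median and highest in Sgo1-/+ libraries and 10.1, 16.5 and 39.8 CPM in wild type libraries. Wild type 4, 1 and 2 were the 3 highest libraries and Sgo1-/+ 3 was the lowest, and the groups overlapped. Its log2 change of -0.82 ± 0.33 had an adjusted p of 0.530 in edgeR (0.0277 unadjusted), with the unadjusted p under 0.05 in 6 of 12 fits that left out a library, and a log2 change of -0.53 without wild type 4. Cyp3a25 averaged 6.89 ± 1.83 CPM in Sgo1-/+ libraries and 7.79 ± 4.77 CPM in wild type libraries, a log2 change of -0.20 ± 0.38, and Cyp3a11, the inducible drug oxidase of mouse liver, averaged 1.29 ± 1.41 CPM in Sgo1-/+ libraries and 1.55 ± 1.13 CPM in wild type libraries and was not tested. For Cyp3a44 and Cyp3a25, 26.5% and 26.8% of 50-base stretches occur in other Cyp3a genes or elsewhere, and their reads are uncertain.

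Family 4 hydroxylates fatty acids, and Cyp4b1, which also activates some plant toxins, had the largest estimate among members at 100 or more CPM. At chr4:115624725-115647709 on the minus strand, it had 76.1, 97.7 and 179.7 CPM as lowest, median and highest in Sgo1-/+ libraries and 116, 181 and 263 CPM in wild type libraries. Sgo1-/+ 1, 2, 4 and 5 lay below every wild type library, and replicate 3 was the highest in each genotype. It averaged 113 ± 42.2 CPM in Sgo1-/+ libraries and 185 ± 52.6 CPM in wild type libraries, a log2 change of -0.72 ± 0.25 with an adjusted p of 0.524 in edgeR (0.0113 unadjusted). The unadjusted p stayed under 0.05 in 12 of 12 fits that left out a library. In edgeR it was 0.0204 in libraries without the suffix, 0.220 in those with it and 0.0892 with library totals alone. The log2 changes there were -0.78, -0.56 and -0.40.

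The Cyp4f genes include leukotriene B4 hydroxylases, of which Cyp4f14 is the mouse enzyme best known for it. Cyp4f14, at chr17:32905071-32917342 on the minus strand, had 79.7, 112 and 150.6 CPM as lowest, median and highest in Sgo1-/+ libraries and 88.7, 157 and 203 CPM in wild type libraries, and the groups overlapped widely. Its log2 change was -0.38 ± 0.21 with an adjusted p of 0.601 in edgeR. Cyp4f40, at chr17:32659410-32676687 on the plus strand, had 50.07, 60.7 and 77.6 CPM in Sgo1-/+ libraries and 53.9, 65.2 and 84.6 CPM in wild type libraries, with a log2 change of -0.13 ± 0.15 and an adjusted p of 0.788. Cyp4f13 averaged 43.1 ± 7.4 CPM in Sgo1-/+ libraries and 46.9 ± 9.1 CPM in wild type libraries, a log2 change of -0.12 ± 0.14. Cyp4f16 averaged 26.9 ± 4.8 CPM in Sgo1-/+ libraries and 26.9 ± 9.9 CPM in wild type libraries, a log2 change of 0.0059 ± 0.23. Cyp4f17 averaged 1.84 ± 0.52 CPM in Sgo1-/+ libraries and 1.69 ± 0.40 CPM in wild type libraries, a log2 change of 0.11 ± 0.28. Cyp4f16 shares 24.8% of its 50-base stretches with Cyp4f37.

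Cyp4v3, the mouse counterpart of the human fatty acid hydroxylase CYP4V2, averaged 8.82 ± 3.53 CPM in Sgo1-/+ libraries and 7.94 ± 3.93 CPM in wild type libraries, a log2 change of 0.14 ± 0.37. Cyp4x1 averaged 9.81 ± 5.46 CPM in Sgo1-/+ libraries and 9.46 ± 4.67 CPM in wild type libraries, a log2 change of 0.053 ± 0.37. Of its 50-base stretches 9.73% occur in the antisense gene Cyp4x1os. It is not stated whether reads were counted by strand, so reads from those stretches cannot be told apart.

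**Figure D4:**
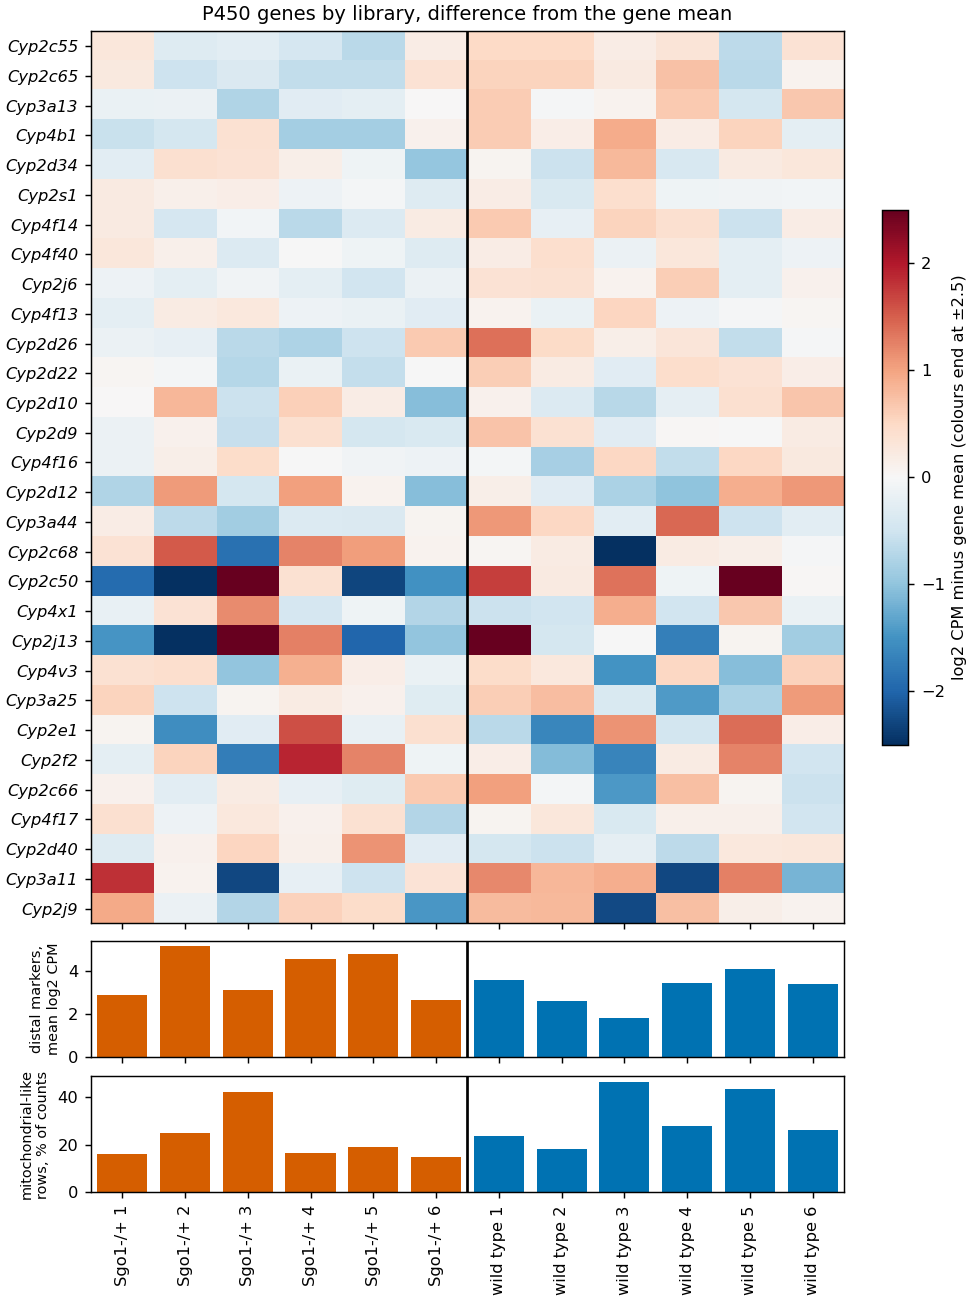
Log2 CPM minus the gene's mean over the 12 libraries, for the 30 named P450 genes (rows, most abundant first) and the libraries (columns, Sgo1-/+ left of the black line, wild type right), with the mean log2 CPM of the distal colon markers and the percentage of counts in 4 mitochondrial-like rows below. Wild type 5 is pale or blue for Cyp2c55, Cyp2c65 and Cyp3a13, Cyp2c68 is reddest in Sgo1-/+ 2, 4 and 5 where the distal markers are high, and wild type 1 is the highest library for 7 genes.

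The highest library was not the same from member to member. Wild type 1 was the highest library for 7 of the 30 and wild type 3 for 5, while Sgo1-/+ 6 was the highest for none. In no named member did all Sgo1-/+ libraries lie on the same side of all wild type libraries. Such separation was not counted over all genes, so this is no result particular to the P450 genes.

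The 42 members below a mean of 10 counts gave no base for a comparison. Of these 25 had a mean of 1 to under 10 counts and 17 a mean under 1, and none was at 0 in all 12 libraries. The highest single values were 29 counts of Cyp2c38, 27.9 of Cyp2c69 and 24.5 of Cyp2j11. Family 1, the aryl hydrocarbon receptor targets that oxidise polycyclic aromatic hydrocarbons, reached at most 3.5 counts of Cyp1a1, 7 of Cyp1a2 and 3 of Cyp1b1 in a library. Cyp1a1 and Cyp1a2 together averaged 0.155 ± 0.147 CPM in Sgo1-/+ libraries and 0.526 ± 0.502 CPM in wild type libraries, and 3 counts correspond to 0.239 to 0.796 CPM, so that no difference was detectable at this depth. The liver genes Cyp2c29, Cyp2b9, Cyp2a5 and Cyp4a14 had 5, 1, 4 and 2 counts in all 12 libraries together.

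The partners of the P450 enzymes were counted by lists, and no gene of any list passed an adjusted p of 0.05 in edgeR. The directions are those with TMM factors: with library totals alone 7 of 7 electron donors and 11 of 12 receptors were higher, 4 of 4 genes of the azoxymethane route, 6 of 6 of haem, 3 of 3 epoxide hydrolases and 5 of 7 other P450 genes, while relative to the median of all genes each list split as with TMM factors. Of 7 electron donor genes tested, 3 were higher and 4 lower in Sgo1-/+ mucosa and none had an unadjusted p under 0.05. Cyb5r1 had a log2 change of 0.67 ± 0.34, Pgrmc1, a haem-binding partner, -0.24 ± 0.13, and Por, the reductase itself, -0.19 ± 0.16. Of 12 receptors and partners that control P450 genes, 2 were higher and 10 lower, 4 of the lower ones at an unadjusted p under 0.05, where 4.73% of all genes were lower at that limit, and none of the 4 was lower at it with library totals alone. Nr1h4, the bile acid receptor FXR, averaged 63.5 ± 11.4 CPM in Sgo1-/+ libraries and 97.9 ± 23.2 CPM in wild type libraries, a log2 change of -0.63 ± 0.17 with an adjusted p of 0.491. Nr3c1, the glucocorticoid receptor, had -0.29 ± 0.11 and Rxra, the shared retinoid partner, -0.20 ± 0.090. Among the sensors of foreign compounds, Nr1i2 (PXR) had -0.21 ± 0.11, Ahr -0.13 ± 0.20 and Nr1i3 (CAR) 0.22 ± 0.19.

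Downstream of the oxidation of azoxymethane, 4 of 7 listed genes were tested, of which 3 were higher and 1 lower, and 1, Adh1, was at an unadjusted p under 0.05 and higher, as were 4.31% of all genes. Adh1, an alcohol dehydrogenase that oxidises methylazoxymethanol, had 404, 1024, 245, 674, 710.4 and 273 CPM in Sgo1-/+ libraries 1 to 6 and 279, 261, 159.9, 274, 329 and 307 CPM in wild type libraries 1 to 6. Sgo1-/+ 2, 5, 4 and 1 lay above every wild type library, and the first 3 of these were also the highest for Hoxb13 and Cyp2c68. The same 4 libraries lay above every wild type library for the distal gene Insl5. Other distal genes differed. Hoxd13 had 1.73 CPM in Sgo1-/+ 1, against 28.5 CPM in wild type 5. Hoxa13 had 28.4 CPM in Sgo1-/+ 3, the lowest Sgo1-/+ library for Adh1, against at most 21.9 CPM in wild type libraries. The log2 change of Adh1 was 1.05 ± 0.32, with an unadjusted p of 0.00596, an adjusted p of 0.491 in edgeR and 0.139 in DESeq2. The part of distal colon in that difference was not tested. Aldh2, which oxidises aldehydes, had a log2 change of 0.16 ± 0.15, and Adh5, the formaldehyde-glutathione dehydrogenase, -0.27 ± 0.24.

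Of 6 genes of haem supply and breakdown, 4 were higher and 2 lower, none at an unadjusted p under 0.05, and Alas1, the first enzyme of haem synthesis, had a log2 change of -0.24 ± 0.25, Blvra 0.32 ± 0.25 and Blvrb -0.082 ± 0.13. Of 3 epoxide hydrolases tested, Ephx2, which opens fatty acid epoxides, averaged 28.8 ± 3.7 CPM in Sgo1-/+ libraries and 35.4 ± 3.6 CPM in wild type libraries, a log2 change of -0.30 ± 0.11 with an adjusted p of 0.527 in edgeR (0.0182 unadjusted). Ephx4 had 0.64 ± 0.37 and Ephx1, which acts on foreign epoxides, 0.38 ± 0.28. Of 28 P450 genes outside the rule 7 were tested, with 4 higher and 3 lower and none at an unadjusted p under 0.05. Ptgis, prostacyclin synthase, had a log2 change of -0.95 ± 0.59, Tbxas1, thromboxane synthase, -0.60 ± 0.40 and Cyp20a1 0.21 ± 0.20.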

How the data were processed

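Messenger RNA of colonic mucosa was sequenced on an Illumina MiSeq from TruSeq libraries, per the labels' protocols. The submitters' processing notes name mm10 and DESeq, with aligner, counter and strand use not given in the sources used here. Raw values are the authors' expected counts, of which 69.5% of those above 0 were not whole. The authors' other column holds log2 values; recomputed from the raw column with median-of-ratios factors, 100.0% of 463104 values matched within 0.001, and it was not tested.

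Counts were rounded, and library sizes and tests left out the 505 rows that lack an Ensembl ID (1.79% to 5.40% of counts). Replicates differed by a chi-square of at least 14.7 per degree of freedom, so each library counted on its own. The test was edgeR 4.0.16 under R 4.3.3 (glmQLFit, TMM, filterByExpr at a count of 10 and a total of 15), with Benjamini-Hochberg adjustment over all genes and a threshold of 0.05, and the code was tested on simulated data. DESeq2 1.42.0, limma-voom (limma 3.58.1), scaling, filters, blocks, the suffix and left-out libraries were alternatives. Log2 CPM used a prior count of 2. Shared sequence was counted as 50-base stretches of GENCODE M21 transcripts, and coordinates are those of the deposited files. Counting error alone is covered by the limit of 3 counts.

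Members and lists were chosen with earlier results of these data known. All members with a mean of at least 10 counts are named; the lowest, median and highest libraries are given for Cyp2e1, the 8 most abundant and the 6 with the smallest p, and the 3 genes of each list with the smallest p at that mean. Nr1i2, Ahr, Nr1i3, library values of Cyp2c50, Cyp2c68 and Cyp2j13, the adipocyte and distal colon genes and the low members named were added after their values were seen. Other P450 genes are rows of Cyp and a digit, with Tbxas1 and Ptgis.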

Additional observations from a re-analysis of the deposited data

Results flagged for a closer look

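Of 60 groups of 6 libraries examined, 1 for each genotype and named member, 5 held a library far from the others of its group on the log2 CPM scale. Chance gives about 1 in 20 groups. Cyp2c55 had 2346 CPM in wild type 5, against 4232 to 5274 CPM in the other wild type libraries. Cyp4f13 had 64.31 CPM in wild type 3, against 39.31 to 47.15 CPM. Cyp2c68 had 1.155 CPM in wild type 3, against 11.31 to 13.42 CPM. Cyp2j13 had 69.36 CPM in wild type 1, from 467.5 raw counts, against 0.3589 to 1.626 CPM. Cyp2j9 had 0 CPM in wild type 3, against 1.006 to 1.811 CPM. All 5 lie in wild type libraries, 4 of them in libraries 3 and 5, where mitochondrial-like rows took 46.5% and 43.7% of counts. None lies in Sgo1-/+ 3, where these rows took 42.2%. The part of that share in these values was not tested.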

How the results depend on the processing

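The count of members past an adjusted p of 0.05 was 0 under each of the 26 alternatives run, DESeq2 and limma-voom included. The count at an unadjusted p under 0.05 was 5 of 28 in the fit reported, beside 9.04% of all genes. It was 9 of 70 both with DESeq2 and with no filter on low counts, beside 6.68% and 8.18% of all genes. With library totals alone it was 1 of 28 (Cyp2d40, higher, and none of the 5), beside 12.3%. In libraries without the suffix it was 1 of 28 (Cyp4b1, lower), beside 3.98%. With the replicate block it was 8 of 28, beside 11.8%. Without the 3 libraries rich in mitochondrial-like rows it was 11 of 31, beside 11.6%. When a library was left out it was 4 to 9, with 9 without wild type 5, and the share of all genes ran from 5.93% to 18.2%. The median over members was -0.15 in the fit reported and 0.14 with library totals alone. It was -0.034 in libraries without the suffix and -0.54 in those with it. Without the 3 libraries rich in mitochondrial-like rows it was -0.29, and left-out libraries gave -0.23 to -0.063. Of 728 gene values compared, 65 had another sign, in 13 members, and the cause was not tested.

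With library totals alone the log2 change was 0.33 for Cyp2s1, 0.21 for Cyp2d34, 0.16 for Cyp4f40, 0.20 for Cyp4f13, 0.034 for Cyp3a25, 0.13 for Cyp2c66 and 0.036 for Cyp2j9. In libraries without the suffix it was 0.12 for Cyp2s1, 0.075 for Cyp2d34, 0.34 for Cyp3a25, -0.036 for Cyp2e1 and 0.036 for Cyp2j9, and with the suffix -0.77 for Cyp2d10, -0.23 for Cyp4f16, -1.10 for Cyp2d12, -0.53 for Cyp4v3 and -0.056 for Cyp4x1. Without the libraries rich in mitochondrial-like rows it was 0.067 for Cyp2s1, 0.033 for Cyp2d34 and -0.065 for Cyp4v3. With the distal marker term it was 0.035 for Cyp2s1, -0.37 for Cyp2d10, -0.67 for Cyp2d12 and -0.11 for Cyp4v3. These 2 alternatives were chosen after seeing the data. Cyp2s1 had 0.0041 with limma-voom and 0.031 with no filter, and Cyp4f16 -0.00016 with RLE factors.

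The labels do not say whether replicate numbers pair the libraries. Same-number correlations of deviations ran from -0.30 to 0.45, the highest for replicate 3, where both libraries were rich in mitochondrial-like rows. These correlations cannot decide on a pairing, as other differences between libraries enter them. With the replicate block Cyp2s1 had 0.0038, Cyp2d12 -0.032 and Cyp2e1 0.048, and the paired permutation of Cyp2e1 gave 0.028 with exact p = 0.969.

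Leaving out each library gave -0.053 to 0.095 for Cyp2s1, -0.23 to 0.041 for Cyp2d34, -0.10 to 0.25 for Cyp2d10, -0.11 to 0.13 for Cyp4f16, -0.22 to 0.28 for Cyp2d12, -0.031 to 0.28 for Cyp4v3, -0.26 to 0.30 for Cyp4x1, -0.39 to 0.050 for Cyp3a25, -0.47 to 0.45 for Cyp2e1, -0.32 to 0.13 for Cyp2c66 and -0.49 to 0.012 for Cyp2j9. The difference in mean log2 CPM of Cyp2e1 was -0.29 to 0.34 in those, and -0.14 in libraries without the suffix with exact p = 1. Depth limits members near 1 CPM, as 3 counts already correspond to 0.239 to 0.796 CPM, depending on the library.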
